A study of Oryza sativa Japonica Group with 20 samples.

Results

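The microRNA (miRNA) miR444 and MADS-box genes that it is known to target were followed in rice roots and shoots exposed to arsenite. The 5 features were 2 miRNAs, miR444c.1 and miR444c.2, of the 185 in the miRNA tables, and 3 genes, MADS23 (LOC_Os08g33488), MADS27 (LOC_Os02g36924) and MADS57 (LOC_Os02g49840), of the 57624 loci in the mRNA tables. They were given by name and were selected on earlier results of the same data, so their levels are described without a test. All groups were Nipponbare, a japonica rice cultivar, grown in nutrient solution to 14 days of age. Sodium arsenite, a salt of trivalent arsenic, was given at 20 or 80 µM and both organs were collected 6 h and 24 h later, beside untreated organs collected at the start (0 h). Each of the 5 conditions in each tissue had 1 mRNA and 1 miRNA library, 20 libraries in all, with no replicates. How many plants went into a library is not stated in the labels. The untreated plants share their hour of day with those of 24 h and not with those of 6 h, which have no untreated library of their own.

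In rice and other monocots miR444 guides the cleavage of mRNAs of the ANR1-like clade of MADS-box transcription factors. Its precursors are transcribed from the strand opposite to such MADS-box genes, and 1 precursor can give several mature miRNAs, told apart by the digit after the point. In rice the module is known for its part in tillering, nitrate and phosphate responses of roots, and antiviral silencing. MADS57 is known to repress the strigolactone receptor gene D14, MADS27 is a nitrate-responsive regulator of root growth, and MADS23 is a close relative of both.

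The libraries differed in more than dose and time. Summed miRNA values ranged from 2921.0 to 9093.6 and were highest in the untreated root library, and the median log2 change over the 51 miRNAs that reached a value of 10 was −0.57, −0.73, 0 and −0.64 in the treated roots (20 µM 6 h, 80 µM 6 h, 20 µM 24 h and 80 µM 24 h, an order kept throughout). The same median over 18667 genes in roots was −0.20, −0.83, −0.17 and −0.44. Changes are therefore also given after median-ratio scaling, which divides each library by its median ratio to a common reference. The 4 root marker genes Lsi1, Lsi2, Nramp5 and NAS2 summed to 526.9 RPKM (reads relative to gene length and to all reads of a library) in untreated roots. In treated roots the sum was 129.4, 3.2, 271.1 and 10.9 RPKM. NAS2 alone made up 344 RPKM of it untreated and 51.6, 1.1, 242.6 and 2.6 RPKM treated. Lsi1, Lsi2 and Nramp5 were each lower at 20 µM 24 h (11.8, 13.4 and 3.3 RPKM) than at 20 µM 6 h (18.7, 53.9 and 5.2 RPKM). The part of this loss in the results below was not tested. Fewer cells of a type and less RNA per cell cannot be told apart in such bulk samples. In shoots the root markers summed to 24.1 RPKM untreated and 169.5, 15.3, 13 and 31.3 RPKM treated, so every shoot lay above both 80 µM roots. Of the 4, limma called only Lsi2 lower in shoots, beside 12.4% of all genes. The 2 leaf markers CAB1R and CAB2R summed to 475 to 803.5 RPKM in shoots and to 3.5 to 90.6 RPKM in roots. In 2 shoot mRNA and 3 shoot miRNA libraries the code inside the file differed from the labels, and clock genes of the 2 shoot mRNA libraries labelled 20 µM ran against their labelled hour. The labels were kept, and the codes inside all root files and the untreated shoot files matched theirs. For mRNA the codes exchange the hours of the 2 shoots labelled 20 µM and leave their dose. For miRNA they differ in dose, time or both for the shoots labelled 80 µM 6 h, 20 µM 24 h and 80 µM 24 h. The values of these treated shoots below carry this doubt. In roots the dawn clock gene LHY minus the mean of 4 day clock genes (log2) was 1.91 untreated and −1.15, −1.97, 1.45 and −1.69 treated. The 80 µM 24 h root thus lay with the 6 h roots in clock genes, and the reason was not tested.

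In roots, miR444c.1 stood lower in all 4 treated libraries than in the untreated one. Its deposited value, which is scaled to library size, was 308.0 untreated, 59.7 at 20 µM 6 h, 39.7 at 80 µM 6 h, 142.6 at 20 µM 24 h and 61.5 at 80 µM 24 h. The untreated root library stood alone at the top, and the library at 20 µM 24 h was the highest of the treated ones. The treated values were 5.16, 7.76, 2.16 and 5.01 times lower, and the mean log2 difference on the log2(value + 10) scale was −2.02 ± 0.68 (SD over 4 treated libraries that share 1 untreated library). The smallest of these values stood for about 190 reads, with an exact 95% Poisson interval of 34.3 to 45.8 that covers counting error only. The intervals of the untreated library (294 to 323) and of the highest treated one (134 to 152) did not overlap.

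In shoots, miR444c.1 was 70.1 untreated and 104.0, 49.0, 53.0 and 83.1 in the treated libraries. As deposited, the untreated shoot lay in the middle of the 5, with 2 treated libraries above it and 2 below. It did not after scaling. Median-ratio values were 65.0 untreated and 95.4, 57.6, 43.6 and 49.4 treated. Shares of the summed miRNA value were 1.06% untreated and 2.64, 1.14, 0.98 and 1.58% treated. The mean log2 difference as deposited was −0.02 ± 0.45. Shoot and root ranges overlapped, since the treated roots at 20 µM 6 h, 80 µM 6 h and 80 µM 24 h lay among or below the shoots and the other roots above them.

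The second miRNA, miR444c.2, was the more abundant form in every library. In roots it stood at 821.5 untreated and at 131.2, 362.3, 757.8 and 195.7 in the treated libraries. The library at 20 µM 24 h lay close to the untreated one, and the other 3 were 6.26, 2.27 and 4.20 times lower. The mean log2 difference in roots was −1.46 ± 1.07.

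In shoots miR444c.2 was 908.7 untreated and 455.6, 587.9, 485.3 and 259.3 in the treated libraries. All 4 treated shoots lay below the untreated one, by 1.99, 1.55, 1.87 and 3.50 times, with a mean log2 difference of −1.07 ± 0.49. Because the labels in doubt are all of treated shoots, this position below the untreated shoot does not depend on which treated library is which. Root and shoot values overlapped. Among the 185 miRNAs, miR444c.2 ranked from 3rd to 7th by value and miR444c.1 from 8th to 14th.

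A position below the untreated library was common among miRNAs of roots. In roots 43.1% of the 51 miRNAs were below untreated in all 4 treated libraries, as both miR444c miRNAs were, and 9.8% were at least 2-fold lower in all 4, a count that includes miR444c.1 and not miR444c.2. In shoots 23.5% of the 51 were below untreated in all 4, miR444c.2 among them. After median-ratio scaling the share below untreated in all 4 root libraries was 23.5%, and after scaling to the summed value of the listed miRNAs it was 21.6%. In shoots these shares were 19.6% and 9.80%. The miRNAs at least 2-fold lower in all 4 root libraries numbered 5 as deposited, 3 after median-ratio scaling and 2 as a share of the listed miRNAs. Under either scaling miR444c.1 was not among them, since it was under 2-fold lower in the 20 µM 6 h root. It was also under 2-fold lower at 80 µM 6 h after median-ratio scaling (−0.999 on the log2(value + 10) scale) and at 80 µM 24 h as a share (0.62 of untreated). It still stood below the untreated root in all 4 libraries under both: its median-ratio values were 190 untreated and 101, 89.9, 88.1 and 79.6 treated, and its share of the listed miRNA value was 3.39% untreated and 1.78, 1.03, 1.66 and 2.11% treated. The mean log2 difference was −1.01 after median-ratio scaling. For miR444c.2 the direction at 80 µM 6 h in roots turned, with median-ratio values of 506 untreated and 222, 820.4, 468 and 253 treated, and a mean log2 difference of −0.39 under each scaling. In shoots miR444c.2 stayed below untreated in all 4 libraries after median-ratio scaling. As a share of the listed miRNAs it did not, with 13.68% untreated and 11.6, 13.73, 8.96 and 4.93% treated, and its mean difference was −0.57.

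**Figure D1:**
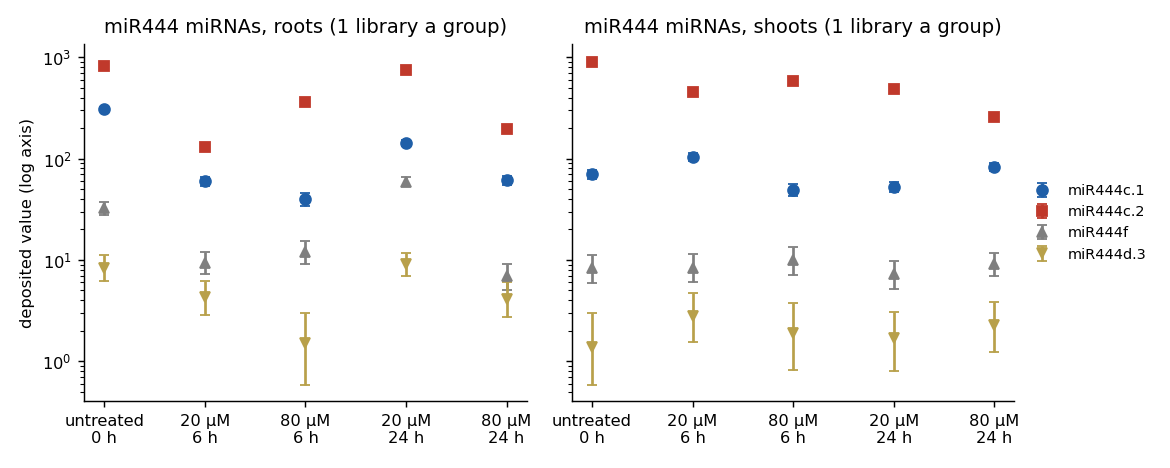
Deposited value (log axis) of 4 miR444 miRNAs in the 5 root libraries (left) and the 5 shoot libraries (right), with exact 95% Poisson intervals that cover counting error only and 1 library per point. In roots miR444c.1 goes from 308.0 untreated to between 39.7 and 142.6 treated, while in shoots all 5 values lie between 49.0 and 104.0.

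The balance between the miR444c miRNAs also differed among libraries, and a ratio within a library is free of its scaling. The ratio of miR444c.1 to miR444c.2 in roots was 0.375 untreated and 0.455, 0.110, 0.188 and 0.314 treated. In shoots it was 0.0771 untreated and 0.228, 0.0833, 0.109 and 0.320 treated. Untreated roots (95% interval 0.355 to 0.396) held a larger share of miR444c.1 than untreated shoots (0.0689 to 0.0862). In the libraries labelled 80 µM 24 h the intervals of roots (0.280 to 0.352) and shoots (0.290 to 0.355) overlapped. That overlap rests on a shoot label in doubt. By the codes inside the files, the 80 µM 24 h shoot is the library labelled 80 µM 6 h, at 0.0833 (0.0719 to 0.0959). These intervals cover the counting of reads alone, so no spread between plants stands behind them.

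**Figure D2:**
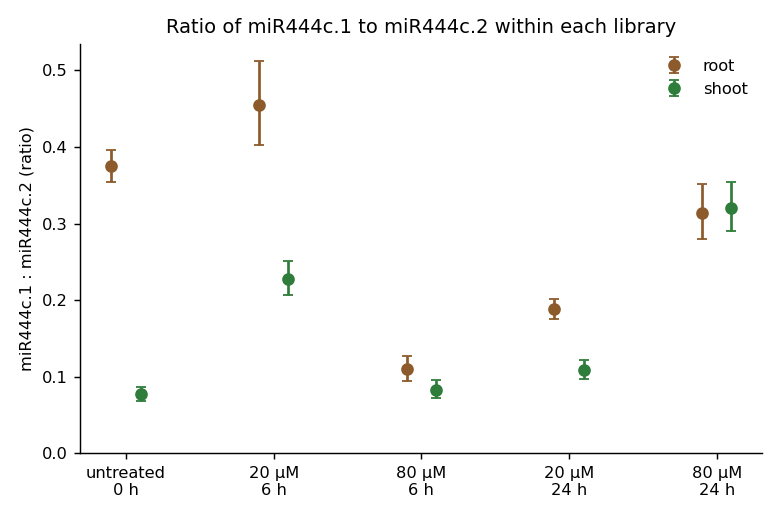
Ratio of miR444c.1 to miR444c.2 in each root (brown) and shoot (green) library, with exact 95% intervals for counting error. The untreated root lies at 0.375 and the untreated shoot at 0.0771. In the libraries labelled 80 µM 24 h both tissues lie near each other at 0.314 and 0.320, but the code inside that shoot file names another condition.

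The miRNA tables held 3 further miR444 names at far lower values. Those of miR444f were 32.3 untreated and 9.4, 12.0, 59.4 and 6.9 treated in roots, and 8.3 untreated and 8.4, 9.9, 7.2 and 9.1 treated in shoots. The root library at 20 µM 24 h was thus above the untreated one and the other 3 below, and the shoots were nearly level. Its shoot minus root difference was −0.65 ± 0.32 (log2, SE over 5 conditions) with an adjusted p of 0.0956 by limma, so it was not called, beside 31.4% of the 51 miRNAs called higher and 15.7% called lower in shoots. In roots miR444d.3 was 8.3 untreated and 4.3, 1.5, 9.2 and 4.1 treated, and in shoots it lay between 1.4 and 2.8. The last, miR444d.1, lay between 0 and 0.7 in all 10 libraries, which is at most about 4 reads.

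Likeness in pattern was measured by Pearson's r over the 10 libraries after each tissue mean was subtracted, as a description of points that share libraries. The 3 miRNAs most like miR444c.1 were miR1423b (r = 0.950), miR396b (0.938) and miR160d (0.911). Those most like miR444c.2 were miR319b (0.798), miR1423 (0.763) and miR444f (0.753). The r between miR444c.1 and miR444c.2 was 0.562, which put miR444c.2 18th among the 50 other miRNAs by likeness to miR444c.1. Their unlike values at 80 µM 6 h in roots and at 20 µM 6 h in shoots can be read from the levels above.

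Among the target genes, MADS27 was a root gene in these libraries and stood higher in every treated root than in the untreated one. In roots MADS27 was at 5.7 RPKM without arsenite and at 9.2, 14.3, 10.0 and 13.9 RPKM with it. Both 80 µM libraries lay above both 20 µM libraries, at 2.51 and 2.44 times the untreated value against 1.61 and 1.75 times. Each of these is 1 library, and how many other genes had this order of doses was not counted. The mean log2(RPKM + 1) difference from untreated was 0.92 ± 0.30, while the median gene was below 0 in each of these libraries. The mean 80 minus 20 µM difference in roots was 0.51 ± 0.10 (SD over the 2 time points).

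Of 18667 genes that reached 5 RPKM in a library, 13.6% were above untreated in all 4 treated root libraries, MADS27 among them. At least 2-fold higher in all 4 were 3.91%, and MADS27 was not, since its changes at 20 µM were smaller. After median-ratio scaling the share above untreated in all 4 was 21.2%. MADS27 stood then at 4.51 RPKM without arsenite and 8.60, 23.3, 8.86 and 14.9 RPKM with it, with a mean log2 difference of 1.33.

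In shoots MADS27 was at 0.4 RPKM without arsenite and at 1.0, 0.5, 0.6 and 0 RPKM with it. Every root library lay above every shoot library, which held for 9.26% of the 18667 genes, and the shoot minus root difference was −2.93 ± 0.69 (log2, SD over 5 conditions). These shoot values are too near the rounding of the tables to order the conditions.

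MADS57 stood higher in shoots than in roots. In roots MADS57 was at 1.5 RPKM without arsenite and at 0.3, 1.1, 0.2 and 0.9 RPKM with it. The 2 libraries at 20 µM were the lowest and the untreated one the highest, with a mean log2 difference of −0.66 ± 0.40. The 80 minus 20 µM difference was 0.68 ± 0.02 (SD over the 2 time points) in roots and −0.33 ± 0.29 in shoots. The small SD in roots is no measure of precision, since these low values have 1 decimal. How many other genes had this order of doses in roots was not counted. In shoots MADS57 was at 2.6 RPKM without arsenite and at 2.6, 2.3, 3.2 and 1.9 RPKM with it. Every shoot lay above every root, by 1.01 ± 0.59 on the log2 scale over 5 conditions, and the treated shoots lay on both sides of the untreated one, with a mean difference of −0.05 ± 0.22.

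MADS23 was low in both tissues. In roots it was at 0.8 RPKM without arsenite and at 0.4, 0.3, 0.3 and 0 RPKM with it. In shoots it was at 0.6 RPKM without arsenite and at 1.4, 0.6, 0.1 and 0.4 RPKM with it. Root and shoot ranges overlapped, the untreated root was the highest root, and the shoot labelled 20 µM 6 h was the highest of all 10.

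MADS23 and MADS57 never reached 5 RPKM, so 1 of the 3 genes passed the filter on low values. Of 8919 genes with a highest value from 1 to under 5 RPKM, 32.3% lay below untreated in all 4 treated root libraries, as MADS23 and MADS57 did, and 2.79% had every shoot above every root, as MADS57 had. After median-ratio scaling MADS57 in the 80 µM 6 h root (1.79 RPKM) stood above the untreated root (1.19 RPKM), so its direction there turned, although every shoot still lay above every root, and MADS23 stayed below untreated in all 4 roots. Deposited values have 1 decimal, and this rounding weighs most on the lowest values. These are MADS23 (0 to 1.4 RPKM), MADS27 in shoots (0 to 1.0 RPKM) and MADS57 in the 20 µM roots (0.3 and 0.2 RPKM).

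**Figure D3:**
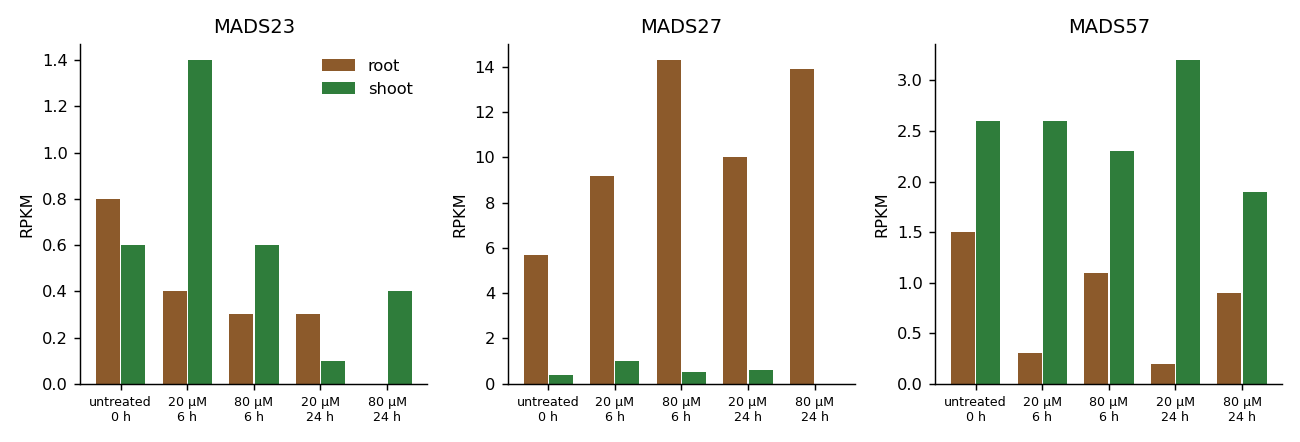
RPKM of MADS23, MADS27 and MADS57 in the root (brown) and shoot (green) library of each condition, on a separate linear axis per gene, with 1 library per bar and no error bar. MADS27 lies between 5.7 and 14.3 RPKM in roots and at or below 1.0 RPKM in shoots, while MADS57 lies between 1.9 and 3.2 RPKM in shoots and at or below 1.5 RPKM in roots.

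Set against each other, the MADS27 and MADS57 levels, both per kilobase, had opposite orders in the tissues. MADS27 was 3.8 times MADS57 in untreated roots and at least 13.0 times MADS57 in each treated root library. In shoots MADS57 was 6.5 times MADS27 untreated, and 2.6 to 5.33 times MADS27 in the 3 treated libraries where MADS27 was not listed at 0.

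In treated roots the miRNAs and the targets can be set side by side, each against the untreated root library of its assay, which the 4 differences share. At 80 µM 6 h the log2 differences were −2.68 for miR444c.1, −1.16 for miR444c.2, −0.47 for MADS23, 1.19 for MADS27 and −0.25 for MADS57. At 20 µM 24 h they were −1.06, −0.11, −0.47, 0.72 and −1.06 in the same order. As deposited, MADS27 was therefore the gene that stood higher where both miRNAs stood lower, although miR444c.2 at 20 µM 24 h lay close to untreated. MADS23 and MADS57 stood lower together with the miRNAs in all 4 libraries as deposited. After median-ratio scaling, miR444c.2 (0.69), MADS27 (2.14) and MADS57 (0.35) all stood above untreated at 80 µM 6 h. As a share of the listed miRNAs, miR444c.2 there was 1.04 times untreated. In shoots, where miR444c.2 was lower in all 4 treated libraries as deposited but level with untreated at 80 µM 6 h as a share of the listed miRNAs, the mean differences of MADS23, MADS27 and MADS57 were −0.04 ± 0.47, 0.08 ± 0.42 and −0.05 ± 0.22. Whether the miRNAs acted on these mRNAs was not tested.

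**Figure D4:**
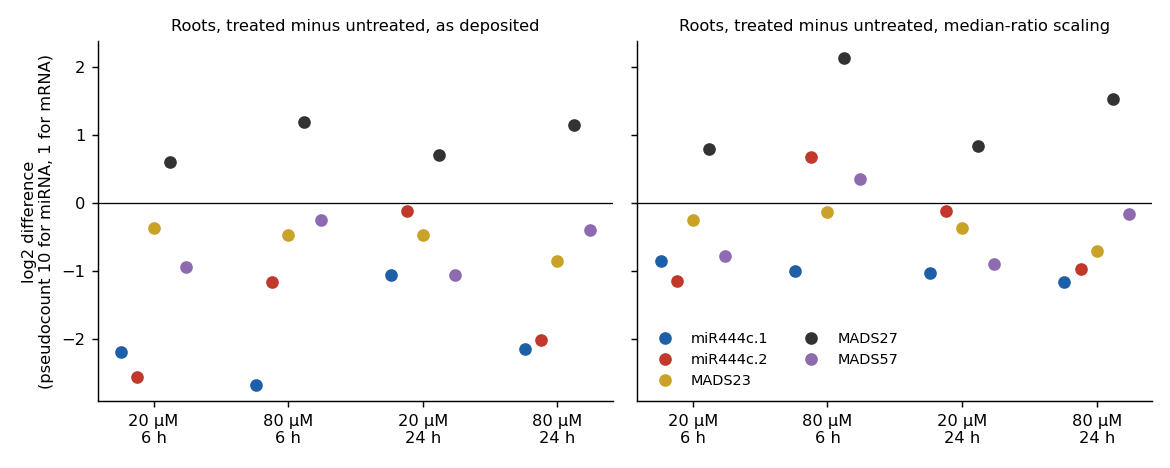
Log2 difference of each treated root library from the untreated root library for the 2 miRNAs (pseudocount 10) and the 3 MADS-box genes (pseudocount 1), as deposited (left) and after median-ratio scaling (right). MADS27 lies above 0 and miR444c.1 below 0 in all 4 libraries on both sides, while miR444c.2 at 80 µM 6 h goes from −1.16 to 0.69.

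The mRNA protocol names no step that marks the strand, so reads of a MADS-box gene and of a transcript on the opposite strand cannot be told apart. In the RefSeq annotation (ASM3414082v1) each of the 3 target genes overlaps a long non-coding RNA gene. That holds for 2 of 25 other MADS-box genes found there, MADS50 and MADS47, and for 2.56% of 29427 protein-coding genes. The table gives no strand, and how much of each RPKM comes from such a transcript was not tested.

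The genes whose pattern was most like MADS27 were LOC_Os11g47840 (r = 0.959), LOC_Os10g40555 (0.958) and LOC_Os04g45970 (0.956), among 18666 genes. LOC_Os04g45970 went from 45.7 RPKM in untreated roots to 97.2, 189.4, 106.6 and 203.7 RPKM in treated roots, and like MADS27 it was higher at 80 than at 20 µM at both times. For MADS57 they were LOC_Os07g05420 (0.939), LOC_Os05g35340 (0.929) and LOC_Os11g36440 (0.916), and LOC_Os07g05420 was at 15.7 RPKM in untreated roots and at 2.1, 13.8, 0.9 and 7.9 RPKM in treated ones. For MADS23 they were LOC_Os08g03370 (0.924), LOC_Os07g47960 (0.902) and LOC_Os03g15690 (0.888).

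Of 28 other MADS-box genes on the list, 7 passed the filter, 14 were above 0 but under 5 RPKM and 7 were listed at 0 in every library. The 3 other genes of the ANR1-like clade never exceeded 1.3 RPKM. By limma, adjusted over all genes, 3 of the 7 were higher and 1 lower in shoots, beside 16.4% of all genes called higher and 12.4% called lower, and the median difference was 0.27 for the 7 against 0.07 for all genes. MADS50, a flowering activator, was higher in shoots by 1.58 ± 0.41 (log2, SE, adjusted p = 0.0159), its relative MADS56 by 1.34 ± 0.43 (adjusted p = 0.0387, and 0.0686 without the filter) and MADS22, a negative regulator of brassinosteroid responses, by 2.46 ± 0.38 (adjusted p = 0.000805).

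MADS4, a floral organ identity gene, was the one lower in shoots, with a log2 difference of −2.02 ± 0.42 (limma adjusted p = 0.00456). In roots MADS4 was at 10.1 RPKM without arsenite and 18.1, 56.4, 18.7 and 18.5 RPKM with it, and in shoots it lay between 2.7 and 6.4 RPKM. Like MADS27 it had its highest root value at 80 µM 6 h. MADS50 in roots went the other way, from 23.4 RPKM untreated to 10.8, 4.2, 12.2 and 4.7 RPKM in treated libraries. MADS26, a stress-related regulator, was at 20.0 RPKM in untreated roots and 14.2, 2.0, 17.9 and 7.6 RPKM in treated ones, and its tissue difference was −0.66 ± 0.46 (limma, adjusted p = 0.318).

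Of 10 genes placed downstream of or beside miR444, 6 passed the filter, and 2 were higher and 1 lower in shoots, beside 16.4% and 12.4% of all genes. D14, the strigolactone receptor gene that MADS57 is known to repress, was at 101.1 RPKM in untreated roots and at 94.7, 78.9, 87.4 and 40.9 RPKM in treated roots. In shoots D14 was at 165.4 RPKM without arsenite and 134.1, 178.6, 172.3 and 215.4 RPKM with it. D14 was higher in shoots by 1.14 ± 0.35 (log2, limma adjusted p = 0.0325), and MADS57 also stood higher there. Whether MADS57 acted on D14 was not tested. The call of D14 was lost after median-ratio scaling (difference 1.03, limma adjusted p = 0.102) and without the filter on low values (adjusted p = 0.0739).

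NAR2.1, the partner protein of high-affinity nitrate transporters, was lower in shoots, with a log2 difference of −2.71 ± 0.52 (limma adjusted p = 0.00309). In roots NAR2.1 was at 39.7 RPKM without arsenite and at 9.5, 1.6, 8.0 and 1.9 RPKM with it, which is the reverse of the order of MADS27. The root markers Lsi1, Lsi2 and Nramp5 and the gene LOC_Os10g40600 had the same order of root libraries as NAR2.1, and NAS2 did not. LOC_Os10g40600 was higher in shoots by 2.57 ± 0.59 (limma adjusted p = 0.00829), and in roots it was at 19.4 RPKM without arsenite and at 5.9, 0.7, 3.0 and 0.9 RPKM with it. The median tissue difference over the 6 was 0.26, against 0.07 for all genes.

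All 6 genes of the miRNA machinery list passed the filter. AGO18, an Argonaute known in rice for antiviral defence, was lower in shoots, with a log2 difference of −1.96 ± 0.41 (limma adjusted p = 0.00497), with 10.8 to 28.3 RPKM in roots and 1.4 to 11.4 RPKM in shoots. AGO1a, an Argonaute that loads miRNAs, was at 22.5 RPKM in untreated roots and at 12.6, 13.6, 16.3 and 10.3 RPKM in treated ones, and its tissue difference was −0.17 ± 0.38 (limma adjusted p = 0.777). Among the 6, limma called 1 lower and 0 higher in shoots, beside 12.4% and 16.4% of all genes, and the median over the 6 was 0.34, against 0.07.

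Between 80 and 20 µM, limma called 0 genes higher and 0 lower (0% each of 18667, smallest adjusted p 0.518), with 344 higher and 1421 lower at an unadjusted p under 0.05, and no other tool was run. None of the listed genes was therefore called for dose, and the median dose difference was −0.38 for the 7 MADS-box genes, −0.74 for the pathway genes and −0.73 for the machinery, against −0.32 for all genes. All of the tissue calls named here are lost, with the direction kept, when the 20 µM conditions are left out. D14 then had a difference of 1.41 (adjusted p = 0.191), MADS22 of 2.60 (0.0656) and MADS4 of −2.11 (0.110).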

How the data were processed

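The deposited mRNA tables hold RPKM per MSU locus, rounded by the authors to 1 decimal. The deposited miRNA tables are named RPKM, but all low values of a library (under 4) lie within 0.05 of a multiple of 1 step of 0.149 to 0.236, whatever the miRNA, so they were taken as RPM, relative to all reads of a library whatever the length. Read numbers are estimates from that step, and no count model was fitted. BWA was used, per the submitters' processing notes. Its version, the build, the annotation, the counting tool, the small-RNA protocol and the treatment of reads shared by miRNAs were not given in the sources used here. Per the labels' protocols, poly(A) RNA was captured on oligo(dT) beads and cDNA synthesis started from random hexamers. One mRNA read was worth 0.78 to 1.36 times its value in untreated roots, and absolute mRNA depth is unknown.

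Values were taken as log2(RPKM + 1) or log2(value + 10), which understates changes of low features, with a minimum of 5 RPKM or 10 in at least 1 library. Limma 3.58.1 (R 4.3.3; trend, Benjamini-Hochberg at 0.05 over all features) compared shoots with roots, each condition being a block (4 residual degrees of freedom), and 80 with 20 µM over 4 tissue-by-time blocks (3). Its residuals measure variation over conditions, not between replicates. Treated and untreated libraries were counted, not tested. Named were the 5 features, every other miR444 miRNA, listed genes called by limma or at 20 RPKM, and the 3 features most alike. Gene names come from general knowledge, of which 48 lie on the same chromosome in RefSeq and 10 without an entry are not printed. Members and lists were chosen with earlier results of these data known. The counts in all 4 libraries at any size, the non-overlap of tissues and the class of low genes were chosen after values were seen. Python 3.11.15, numpy 2.4.6, pandas 2.3.3, scipy 1.17.1 and matplotlib 3.10.9 did the rest.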

Additional observations from a re-analysis of the deposited data

How the results depend on the processing

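No fit with replicate numbers as a block could be made, since each group has 1 library; the fits used conditions as blocks. Without the 20 µM conditions, which leaves 3 of 5, tissue calls among mRNAs went from 3068 higher and 2324 lower in shoots to 825 and 440, those among other MADS-box genes from 4 to 0, those among pathway genes from 3 to 0, and miRNAs lower in shoots from 8 to 2. Of the listed genes, D14 also lost its call after median-ratio scaling and without the filter, and MADS56 without the filter. The count of miRNAs lower in shoots was 13 without the filter, 13 after median-ratio scaling and 4 with libraries assigned by the codes inside the files. Dose calls were 0 in every alternative run. Of 124 values of the 5 features under an alternative, 21 moved by more than their spread over conditions. In roots the treated minus untreated mean of MADS27 was 0.64 with a pseudocount of 5 and 1.33 after median-ratio scaling. The 80 minus 20 µM mean of MADS57 in roots went from 0.68 to 0.19 with a pseudocount of 5. It was 1 with a pseudocount of 0.5 and 0.93 after median-ratio scaling. The treated minus untreated mean of miR444c.2 in shoots was −0.57 as a share of the listed miRNAs. With a pseudocount of 50, the count of miRNAs 2-fold lower throughout the treated roots went from 5 to 1. The 80 minus 20 µM mean of miR444c.2 changed sign in roots, from −0.25 to 0.49 after median-ratio scaling and 0.42 as a share of the listed miRNAs, and in shoots, from −0.26 to 0.62 by the file codes. The cause was not tested. Scaling to the listed miRNAs and assignment by the file codes were added after seeing the data. With 1 library a group, no spread between plants is known.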
